A study of Homo sapiens with 8 samples.

Results

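The genes described here are 39 genes of DNA replication and S phase, the part of the cell cycle in which the genome is copied. They were taken by symbol from a list of named replication genes. Each of the 39 symbols matched 1 row of the deposited table of 57445 genes, and all 39 were among the 15806 genes that were tested, those whose counts averaged 10 or more over the 8 libraries. The lowest count of any of them in any library was 337, for POLA1.

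The cells were MDA231-BrM2, cells derived from the breast cancer line MDA-MB-231 that metastasize to brain. RNA was obtained by translating ribosome affinity purification (TRAP): GFP-tagged polysomes of the carcinoma cells were pulled down with anti-GFP beads, so the values are of ribosome-associated mRNA and not of total mRNA. There were 4 groups of 2 libraries. Control cells, labelled consh, were grown alone or with astrocytes. Cells carrying Cx43sh1 or Cx43sh2, read here as 2 hairpins against connexin 43 (a gap junction channel protein whose gene is GJA1), were only grown with astrocytes. All cells were kept in DMEM with 10% fetal bovine serum and 2 mM glutamine, and cocultures held 1 astrocyte per carcinoma cell for 24 h. The series design calls the libraries of a group independent replicates without saying whether they came from separate cultures, so p-values measure the spread between these libraries. No Cx43-depleted cells without astrocytes were among the groups, so an action of depletion that needs astrocytes and one that does not cannot be told apart. The species of the astrocytes and the number of clones behind each hairpin line are not given in the sources used here.

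A cell copies its genome once per cycle. In G1, ORC, CDC6 and CDT1 load rings of MCM2 to MCM7 onto origins; at the start of S phase CDC45, MCM10 and the GINS complex turn each ring into an active helicase, and polymerases, held to the template by the PCNA clamp, copy both strands. Many of these genes share activation by E2F transcription factors, which are released from the retinoblastoma protein when cyclin E and cyclin D kinases act, so their mRNA is often read as a sign of proliferation. In a population of cells, fewer cells in S phase and less replication mRNA per cell cannot be told apart.

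Promoters were read from RefSeq on GRCh38.p14, as windows of 300 bases that reach from 250 bases before each start site to 50 bases after it. A window was matched for 33 of the 39 genes, and MCM4, MCM5, GINS4, POLD3, RPA2 and CCNE2 had none. An E2F match was any of the strings TTTCGCGC, TTTGGCGC, TTTCCCGC and TTTGCCGC on either strand, with overlapping matches counted. Windows of 18 of the 33 genes (54.5%) held at least 1 match, beside 3.33% of 27305 promoters of the same length. The windows below are for E2F1, the transcription factor itself, for MCM6, which had the most matches, and for RFC3, LIG1 and FEN1, whose mRNA fell in comparisons described later. Capitals mark the E2F matches, and each sequence is given 5′ to 3′ on the strand of its gene. E2F1 is at chr20:33686336-33686635 (minus strand), MCM6 at chr2:135876394-135876693 (minus strand), RFC3 at chr13:33817899-33818198 (plus strand), LIG1 at chr19:48170295-48170594 (minus strand) and FEN1 at chr11:61792661-61792960 (plus strand).
E2F1: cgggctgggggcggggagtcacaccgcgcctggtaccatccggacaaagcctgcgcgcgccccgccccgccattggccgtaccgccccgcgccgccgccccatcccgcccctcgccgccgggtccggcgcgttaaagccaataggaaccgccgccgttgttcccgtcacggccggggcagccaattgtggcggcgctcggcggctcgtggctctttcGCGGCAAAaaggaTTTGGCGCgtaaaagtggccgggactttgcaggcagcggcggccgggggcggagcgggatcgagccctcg
MCM6: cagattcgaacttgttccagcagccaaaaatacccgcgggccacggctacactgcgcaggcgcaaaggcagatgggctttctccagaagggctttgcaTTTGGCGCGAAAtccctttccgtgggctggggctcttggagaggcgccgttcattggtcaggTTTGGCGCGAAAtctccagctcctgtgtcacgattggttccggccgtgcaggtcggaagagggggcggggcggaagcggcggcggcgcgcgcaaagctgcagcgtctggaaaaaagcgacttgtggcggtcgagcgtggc
RFC3: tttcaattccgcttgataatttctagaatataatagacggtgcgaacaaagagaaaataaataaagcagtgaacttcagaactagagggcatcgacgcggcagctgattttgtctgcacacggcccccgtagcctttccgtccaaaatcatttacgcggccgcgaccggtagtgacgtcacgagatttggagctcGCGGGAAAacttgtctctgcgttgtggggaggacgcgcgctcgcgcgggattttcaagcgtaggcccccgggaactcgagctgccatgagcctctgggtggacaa
LIG1: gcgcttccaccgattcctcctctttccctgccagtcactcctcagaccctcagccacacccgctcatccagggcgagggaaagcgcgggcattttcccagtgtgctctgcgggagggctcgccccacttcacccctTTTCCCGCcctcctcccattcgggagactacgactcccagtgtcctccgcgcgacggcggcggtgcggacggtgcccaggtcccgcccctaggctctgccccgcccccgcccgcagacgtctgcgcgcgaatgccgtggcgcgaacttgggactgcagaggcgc
FEN1: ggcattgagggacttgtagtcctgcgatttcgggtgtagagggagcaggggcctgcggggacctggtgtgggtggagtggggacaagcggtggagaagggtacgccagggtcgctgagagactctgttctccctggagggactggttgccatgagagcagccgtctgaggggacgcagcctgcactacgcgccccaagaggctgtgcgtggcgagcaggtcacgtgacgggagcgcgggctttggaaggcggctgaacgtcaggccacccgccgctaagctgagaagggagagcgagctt

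The E2F1 window held 2 matches close together, and the MCM6 window held 4, as 2 overlapping pairs. RFC3 and LIG1 had 1 match each, and FEN1 had none of these strings. A second string, CCAAT on either strand, was in 18 of the 33 windows (54.5%), beside 35.7% of all promoters, and 10 windows held both E2F and CCAAT strings. The CHR string TTTGAA, known from promoters of mitotic genes, was in 1 window (3.03%), that of RRM1, beside 15.4% of all promoters. For 25 genes of G2 and mitosis, of which 20 had a window, the shares were 10% for E2F, 80% for CCAAT and 65% for CHR. A match is a string of letters and was not tested as a binding site.

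Levels are given as CPM, the deposited counts scaled to a common library size with TMM factors. Divided by transcript length, so that genes can be set against each other, mean levels over the 8 libraries ran from 1.78 CPM per kb for POLA1, the catalytic subunit of the primer-making polymerase alpha, to 167 CPM per kb for TYMS, which makes thymidylate. PCNA followed at 86.7, UNG, which removes uracil from DNA, at 71.1, RRM2, the small subunit of ribonucleotide reductase, at 66.0 and SLBP, which binds histone mRNA, at 50.5 CPM per kb. The genes of nucleotide supply and the clamp thus had more ribosome-associated mRNA per length than the large polymerase subunits, among which POLE was at 2.34 and POLD1 at 5.41 CPM per kb. The 6 MCM helicase subunits, which assemble in equal numbers, were not equal in mRNA: MCM7 was at 33.1, MCM3 at 24.8, MCM4 at 18.6, MCM5 at 9.35 and MCM2 at 8.97 CPM per kb, with MCM6 between MCM4 and MCM5. The levels of MCM5 and MCM2 differ by less than their spread over libraries.

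Gene counts ran from 38219702 to 48997555 per library, and the common coefficient of variation between libraries of a group was 7.66%. GJA1, the target of the hairpins, gave 51.1 and 46.3 CPM without astrocytes, 65.9 and 64.7 in control cocultures, 27.8 and 27.8 with hairpin 1, and 31.7 and 33.8 with hairpin 2. GJA1 was thus at 0.462 of the control coculture in depleted cells (log2 change -1.11 ± 0.06 SE, adjusted p = 7.89e-06), as the labels state. Markers of the MDA-MB-231 lineage (VIM, CD44, EGFR, KRT8, KRT18 and KRT19) were present in every library; VIM and KRT8 rose in coculture, and on depletion KRT19 (-0.83), VIM (-0.58), KRT8 (-0.44) and KRT18 (-0.25) fell. Of 9 fibroblast markers, 8 of them tested, the summed level was 675 to 1079 CPM alone, 765 to 819 in control cocultures, 439.5 to 516 with hairpin 1 and 490.1 to 506 with hairpin 2. Of these 2 rose and 0 fell in coculture, 0 rose and 3 fell on depletion, and 1 rose and 3 fell in depleted cells against cells alone, COL1A1 (-0.84) and COL1A2 (-1.07) among the 3. Of 12 astrocyte markers, 8 could be tested; 6 were under 1 CPM in every library, AQP4, GJB6 and S100B among them, and 3 were higher in the control coculture than alone: SLC1A3, GFAP and SOX9. The summed level of the 12 was 51.7 to 56.2 CPM alone, 70.4 to 71.9 in control cocultures, 64.6 to 72.9 with hairpin 1 and 58.9 to 59.7 with hairpin 2. SOX9 made up most of it, at 35.6 to 48.1 CPM over the 8 libraries. On depletion SLC1A3 was called lower (-0.48). With hairpin 1 alone SLC1A3 was lower (-0.55) and GFAP higher (0.33). Of 10 microglia and macrophage markers, AIF1, TYROBP, C1QA and C1QB were at 0 in every library, and the summed level was 84.6 to 86.0 CPM alone, 145 to 147 in control cocultures, 131 to 142 with hairpin 1 and 151 in both libraries of hairpin 2, nearly all of it LAPTM5 (83.0 to 148 CPM over the 8 libraries). The 3 of the 10 that were tested, CD14 (1.34), CSF1R (1.16) and LAPTM5 (0.77), were all called higher in coculture, and 0 were called on depletion. All 3 were also higher in depleted cells against cells alone (1.06, 0.94 and 0.75). CD14 lay at 0.66 to 2.12 CPM and CSF1R at 0.63 to 1.59 CPM over the 8 libraries. The part of any of these markers in the results below was not tested.

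**Figure D1:**
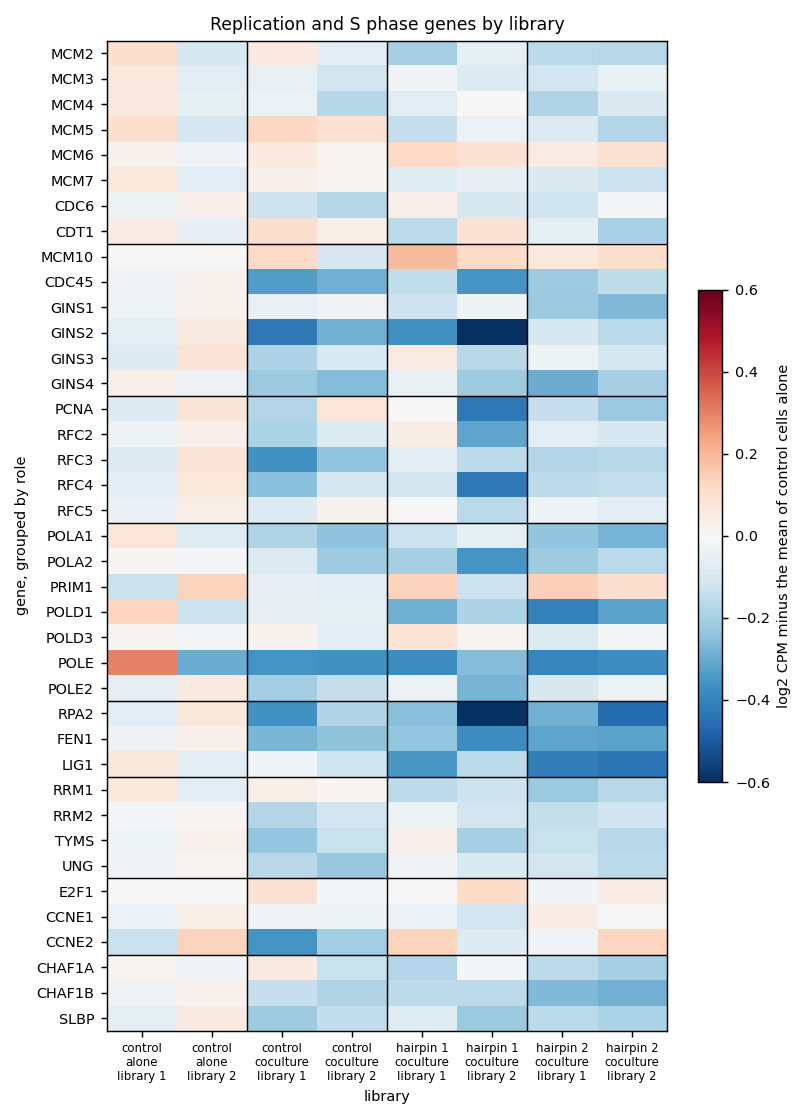
Each row is 1 of the 39 genes, grouped by role, and each column 1 library; colour shows log2 CPM minus the mean of the 2 libraries of control cells alone, from -0.6 (blue) to 0.6 (red), with values beyond these limits drawn at the limit. Most rows are pale or blue in the cocultures. The top block, of MCM and licensing genes, stays close to white, and GINS2, RPA2 and FEN1 are among the bluest rows.

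The first comparison asked how coculture with astrocytes changed the replication mRNA of control carcinoma cells. Of the 39 genes, 3 fell and none rose at an adjusted p under 0.05 by edgeR's quasi-likelihood test: CDC45, RFC3 and FEN1. The shifts were small, with fits for single genes from -0.39 to 0.11 on the log2 scale. Over all tested genes 8.74% were called higher and 2.93% lower, so 3 of 39 lower is a count of a few genes beside that share. The fitted change was below 0 for 32 of the 39 genes (82.1%), beside 50.5% of all tested genes, and the median log2 change was -0.13, beside -0.00 for all. At an unadjusted p under 0.05 there were 12 genes, all lower (30.8%). Of all 15806 tested genes 27.1% passed it, 2595 genes higher and 1693 lower. The geometric mean of the 39 genes came to 47.5 and 47.4 CPM without astrocytes and 43.7 and 43.7 in control cocultures, so cocultures were lower in both libraries. The 95% interval lay within 1.5-fold of no change, up or down, for 38 of the 39.

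Among the 8 genes of origin licensing and the MCM helicase, none was called and none reached an unadjusted p under 0.05 in this comparison, and none was called by DESeq2 either. Their median log2 change was 0.01, with a range from -0.15 for CDC6 to 0.11 for MCM5. MCM7 was at 110 and 100.1 CPM alone and at 107 and 105 CPM in coculture, so its groups overlapped. MCM2 was at 36.5 and 31.9 CPM alone and at 35.5 and 32.5 in coculture, again overlapping. CDT1, the loader that is destroyed once S phase begins, was at 32.8 and 30.6 CPM alone and at 34.0 and 32.6 in coculture. Each of the 8 intervals lay within 1.5-fold of no change, with bounds from -0.32 to 0.30.

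The 6 genes that activate the helicase had a median of -0.19. CDC45, which travels with the MCM ring as part of the active helicase, was at 35.0 and 36.1 CPM alone, 28.2 and 29.1 in control cocultures, 32.1 and 27.8 with hairpin 1 and 30.6 and 31.9 with hairpin 2. Both control cocultures were below both libraries of cells alone, and CDC45 fell by 19.4% (log2 change -0.31 ± 0.08 SE, adjusted p = 0.0444). GINS2, a subunit of the 4-protein GINS complex, was at 65.9 and 71.2 CPM alone and at 50.9 and 56.1 in control cocultures. Its groups did not overlap either, but the value of -0.36 ± 0.10 missed the threshold (adjusted p = 0.0527). GINS4 gave -0.24 ± 0.08 (adjusted p = 0.0955). The other members of the group had smaller values: GINS3 -0.14, GINS1 -0.03 and MCM10 0.01.

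Of the clamp and its loader, RFC3 fell. RFC3, a subunit of the replication factor C that opens PCNA and places it on DNA, was at 50.3 and 56.1 CPM alone, 41.3 and 45.1 in control cocultures, 50.6 and 47.7 with hairpin 1 and 47.1 and 47.3 with hairpin 2. The 2 control cocultures were the lowest of the 8 libraries (log2 change -0.30 ± 0.08, adjusted p = 0.0429). The other loader subunits gave -0.18 ± 0.11 for RFC4, -0.13 ± 0.11 for RFC2 and -0.03 ± 0.08 for RFC5. PCNA itself was at 120 and 134 CPM alone and at 112 and 133 in control cocultures, which overlapped, with a 95% interval from -0.37 to 0.27.

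The 7 polymerase and primase genes all had values below 0, with a median of -0.15, and none was called, by edgeR or by DESeq2. POLE, the catalytic subunit of the leading-strand polymerase epsilon, had the value furthest from 0 of the 39 genes, -0.39 ± 0.16 (adjusted p = 0.165). It was at 26.7 and 17.7 CPM alone and at 17.0 and 16.9 in control cocultures. The first library of control cells alone thus stood apart, and all other 7 libraries lay between 16.6 and 18.2 CPM. POLA1 was at 11.2 and 10.2 CPM alone and 9.44 and 9.04 in control cocultures (-0.21 ± 0.09, adjusted p = 0.162), and POLD1, the catalytic subunit of polymerase delta, at 23.1 and 19.4 alone and 20.5 and 20.3 in control cocultures.

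FEN1, the nuclease that trims the flaps of Okazaki fragments, was at 109 and 114 CPM alone, 92.0 and 94.0 in control cocultures, 94.8 and 85.6 with hairpin 1 and 89.3 and 88.9 with hairpin 2. Every coculture library was below both libraries of cells alone (log2 change -0.26 ± 0.07, adjusted p = 0.0458). RPA2, a subunit of the protein that coats single-stranded DNA, gave -0.27 ± 0.12 (adjusted p = 0.195), and LIG1, the ligase that seals the fragments, -0.07 ± 0.09.

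RRM1, RRM2 and TYMS, of nucleotide supply, and UNG, which removes uracil, were not called in coculture. Calls among other genes of nucleotide supply are given further below. UNG gave -0.20 ± 0.06 (adjusted p = 0.0803), TYMS -0.18 ± 0.08, RRM2 -0.15 ± 0.06 and RRM1, the large subunit of ribonucleotide reductase, 0.02 ± 0.07. E2F1 was at 74.3 and 74.1 CPM alone and at 78.9 and 73.6 in control cocultures, with a 95% interval from -0.12 to 0.20. CCNE1, which encodes a cyclin E that drives entry into S phase, gave -0.03 ± 0.07, and CCNE2, the other cyclin E gene, -0.29 ± 0.12 (adjusted p = 0.173). For CHAF1A and CHAF1B, subunits of the factor that places histones on new DNA, the values were -0.04 ± 0.08 and -0.16 ± 0.07, and for SLBP -0.18 ± 0.07. The values of E2F1 and CCNE1 were smaller than their standard errors, while CCNE2, CHAF1B and SLBP were among the 12 genes with an unadjusted p under 0.05.

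The 3 calls of the coculture comparison depended on single libraries, while the fits stayed below 0. With 1 of the compared libraries left out, CDC45 ran from -0.35 to -0.29, RFC3 from -0.39 to -0.23 and FEN1 from -0.30 to -0.24. Leaving out a hairpin 2 library, no part of this contrast, changes the estimate of the spread. The 3 fits then stayed at -0.31, -0.30 and -0.26. No gene of the 39 was called without library 1 of control cells alone, without either control coculture library, or without either hairpin 2 library. Without library 2 of control cells alone 1 gene was called, POLE, and without either hairpin 1 library 5 were. DESeq2 called 4 genes: the 3 and GINS2. With only the 2 compared groups fitted, 2 genes were called, CDC45 and GINS2, while RFC3 and FEN1 were not. With the replicate number as a block 0 genes were called.

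**Figure D2:**
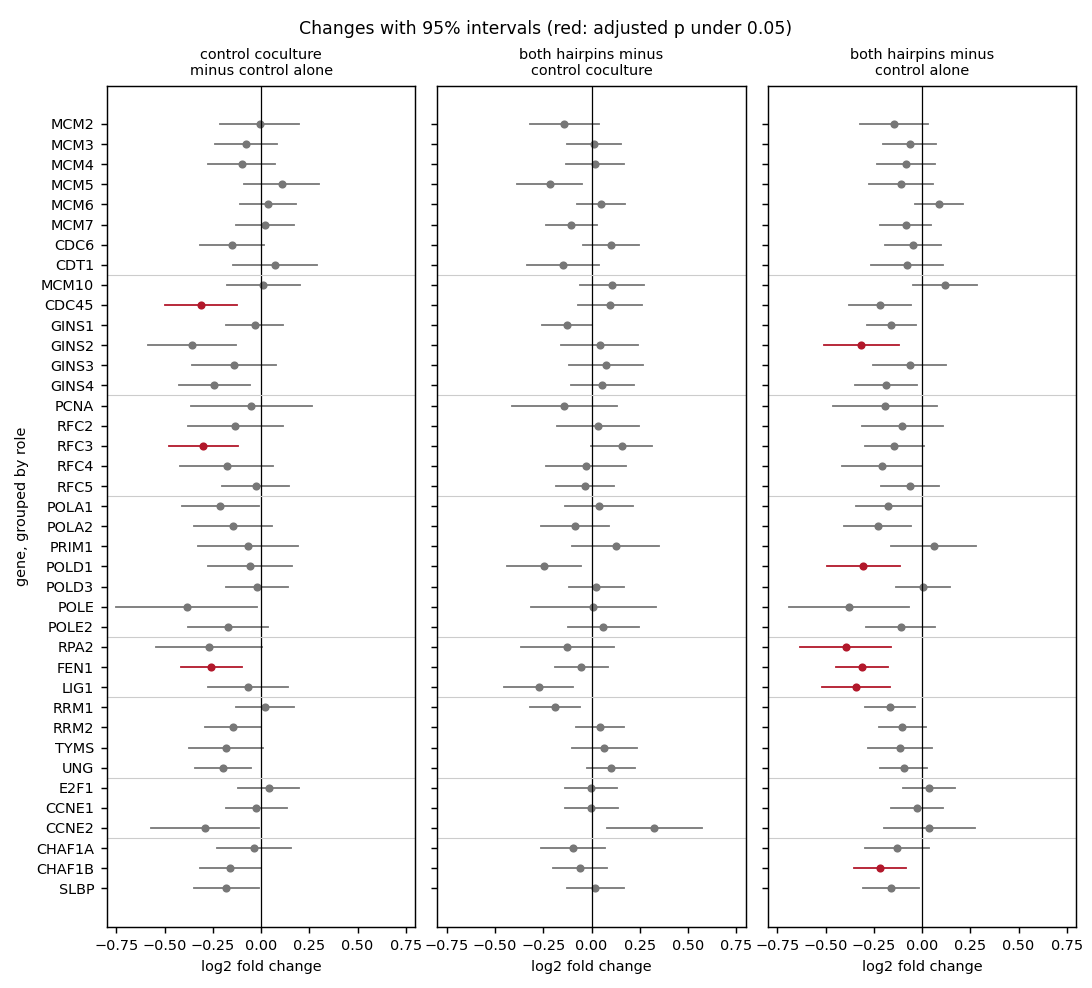
Points are log2 fold changes of the 39 genes and lines their 95% intervals, for the control coculture minus cells alone (left), both hairpins minus the control coculture (middle) and both hairpins minus cells alone (right); red marks an adjusted p under 0.05. There are 3 red genes on the left, 0 in the middle and 6 on the right, all below 0.

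The next comparison set Cx43-depleted cells, as the mean of both hairpins, against control cells, all with astrocytes. None of the 39 genes was called by edgeR's quasi-likelihood test, in either direction, while 3.37% of all tested genes were higher and 5.85% lower. DESeq2 called 0 as well. At an unadjusted p under 0.05 there were 6 genes, 5 lower and 1 higher (15.4%, beside 25.7% of all tested genes). The median log2 change was 0.01, and 18 of 39 values were below 0. Every one of the 39 intervals lay within 1.5-fold of no change, with a median half-width of 0.17 on the log2 scale. This comparison and that of coculture share the control coculture libraries, so a gene that is low in these by chance reads as lower in the first and higher in the second.

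LIG1 was at 22.0 and 20.6 CPM in control cocultures, 17.5 and 20.0 with hairpin 1 and 16.7 and 16.4 with hairpin 2. All 4 depleted libraries were below both control cocultures, but the value did not pass (log2 change -0.27 ± 0.08, adjusted p = 0.0646). RRM1 was at 113 and 112 CPM in control cocultures, 99.6 and 102 with hairpin 1 and 95.2 and 98.7 with hairpin 2 (-0.19 ± 0.06, adjusted p = 0.0751). Here too the groups did not overlap. POLD1 gave -0.25 ± 0.08 and MCM5 -0.22 ± 0.07, both with an adjusted p of 0.103, and GINS1 -0.13 ± 0.06.

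CCNE2 was the 1 gene with a value above 0 and an unadjusted p under 0.05. It was at 8.97 and 9.96 CPM in control cocultures, 12.6 and 10.9 with hairpin 1 and 11.3 and 12.6 with hairpin 2 (log2 change 0.33 ± 0.11, adjusted p = 0.0981). Its level in control cells alone, 10.5 and 12.6 CPM, overlapped that of the depleted cells, and its fit against cells alone was 0.04 ± 0.10. The genes that fell in coculture gave 0.10 ± 0.07 for CDC45, 0.16 ± 0.07 for RFC3 and -0.05 ± 0.06 for FEN1 on depletion, none of them called. RFC3 was called higher on depletion in 2 fits added after seeing the data, 1 with the length trend removed and 1 with a block of crossed hairpin numbers.

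MCM2 to MCM7, CDC6 and CDT1 had values from -0.22 to 0.10 on depletion. E2F1 was at 74.3 and 80.2 CPM with hairpin 1 and at 73.4 and 76.4 with hairpin 2, overlapping the controls, and its 95% interval ran from -0.14 to 0.13. PCNA gave -0.14 ± 0.12, TYMS 0.07 ± 0.07 and RRM2 0.04 ± 0.05. For these 3 genes, often used as proliferation markers, each interval included no change and lay within 1.5-fold of it. Leaving out library 2 of hairpin 1 brought 1 call, LIG1, and with no filter on low counts 1 gene was called, CCNE2. A fit from which the trend with transcript length was removed, chosen after seeing the data, called 7 genes: LIG1, MCM5, POLD1 and RRM1 lower, and RFC3, TYMS and UNG higher.

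Each hairpin was also set against the control coculture alone. For hairpin 1, 0 of the 39 genes were called by edgeR or DESeq2 (3.09% of all tested genes were higher and 4.73% lower), and 4 (10.3%, beside 25.6% of all tested genes) had an unadjusted p under 0.05: CCNE2 at 0.31 ± 0.12, RFC3 at 0.18 ± 0.08, MCM5 at -0.20 ± 0.09 and RRM1 at -0.16 ± 0.07. For hairpin 2, 0 were called by either tool (0.962% higher and 3.20% lower over all tested genes), and 6 (15.4%, beside 19.5% of all tested genes) had an unadjusted p under 0.05. These were LIG1 at -0.36 ± 0.09 (adjusted p = 0.0681), POLD1 at -0.31 ± 0.10, MCM5 at -0.24 ± 0.09, RRM1 at -0.22 ± 0.07, GINS1 at -0.21 ± 0.06 and CCNE2 at 0.34 ± 0.12. LIG1 was called for hairpin 2 without either hairpin 1 library, which changes the estimate of the spread and not the libraries compared.

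The 2 hairpins were tested against each other directly. No gene of the 39 differed by edgeR or DESeq2, beside 0.0253% of all tested genes higher and 0.00633% lower with hairpin 2, and 2 had an unadjusted p under 0.05. GINS2 was at 53.2 and 43.7 CPM with hairpin 1 and 64.0 and 61.2 with hairpin 2, groups that did not overlap (log2 difference 0.37 ± 0.10, adjusted p = 0.705). GINS1 was at 61.9 and 66.1 CPM with hairpin 1 and 57.9 and 56.2 with hairpin 2 (-0.17 ± 0.06, adjusted p = 0.705). With no filter on low counts GINS2 was called. For 38 of 39 genes the interval of the difference lay within 1.5-fold.

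**Figure D3:**
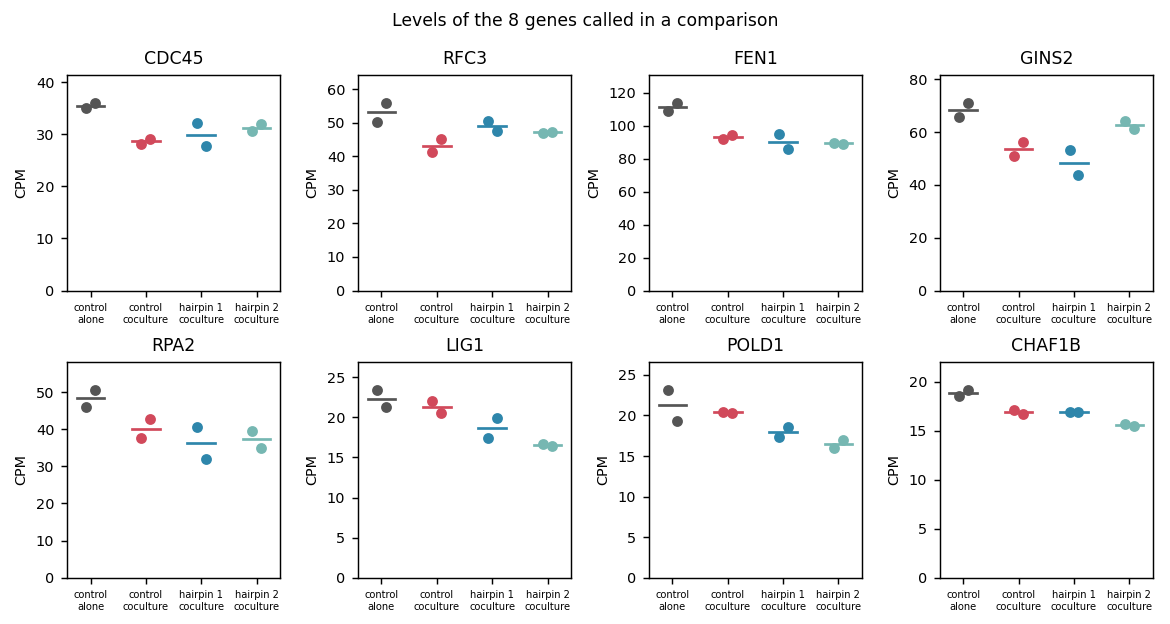
CPM in each library (points) and the mean of each group (lines) for the 8 genes called in coculture or in depleted cells against cells alone; the vertical axis starts at 0. Both libraries of control cells alone lie at or near the top in most panels (GINS2 65.9 and 71.2 CPM, against 43.7 in its lowest library).

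Last, depleted cells with astrocytes were set against control cells alone, a comparison that joins both differences, coculture and depletion. It shares libraries with the other comparisons, so it is no second measurement of them. Of the 39 genes 6 fell and none rose: RPA2, LIG1, GINS2, FEN1, POLD1 and CHAF1B. Over all tested genes 10.8% were higher and 6.34% lower, so 6 of 39 stands beside an all-gene share of 6.34%. The median log2 change was -0.12, and 33 of 39 values were below 0 (84.6%, beside 50.3% of all tested genes). At an unadjusted p under 0.05 there were 15 genes, all lower (38.5%). Of all 15806 tested genes 34.8% passed it, 3022 genes higher and 2477 lower. DESeq2 called 6 genes as well, with POLE in place of CHAF1B. With only the compared groups fitted 5 were called, without CHAF1B.

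All 3 genes that the 39 hold for single-strand binding and Okazaki fragment joining were among the 6. The other RPA subunits, RPA1 and RPA3, were in a list of 33 other replication genes described below. Of these 33 only CHTF18 was called in this comparison. RPA2 was at 46.0 and 50.5 CPM alone, 40.5 and 32.0 with hairpin 1 and 39.5 and 35.0 with hairpin 2, and fell by 23.9% (log2 change -0.39 ± 0.10, adjusted p = 0.0339). FEN1 fell by 19.5% (-0.31 ± 0.06, adjusted p = 0.0110). LIG1 was at 23.4 and 21.3 CPM alone and at 16.4 to 20.0 CPM in the 4 depleted libraries, and fell by 21.1% (-0.34 ± 0.08, adjusted p = 0.0205). In each of the 3 genes the depleted libraries lay below both libraries of cells alone. FEN1 in control cocultures overlapped the depleted cells, and LIG1 in control cocultures overlapped cells alone. A difference between the genes was not tested.

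GINS2 fell by 19.6% (-0.32 ± 0.09, adjusted p = 0.0372), POLD1 by 19.0% (-0.30 ± 0.08, adjusted p = 0.0376) and CHAF1B by 14.0% (-0.22 ± 0.06, adjusted p = 0.0382). CHAF1B was at 18.6 and 19.1 CPM alone, 17.1 and 16.6 in control cocultures, 16.9 and 16.9 with hairpin 1 and 15.7 and 15.4 with hairpin 2, with no overlap between cells alone and the rest. POLD1 was at 17.3 and 18.6 CPM with hairpin 1 and 16.0 and 17.0 with hairpin 2, below both libraries of cells alone. CDC45 (-0.22 ± 0.07, adjusted p = 0.0675) and POLA2, the second subunit of polymerase alpha (-0.23 ± 0.08, adjusted p = 0.0690), did not pass. MCM10 at 0.12 ± 0.07, MCM6 at 0.09 ± 0.05 and PRIM1, the primase that makes the RNA primer, at 0.06 ± 0.10 had the highest values of the 39.

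These calls also leaned on single libraries, while the 6 fits stayed below 0. With 1 library left out, FEN1 ran from -0.36 to -0.28 and POLD1 from -0.44 to -0.19. None of the 39 was called without library 1 of control cells alone or without library 2 of hairpin 2, and 1, FEN1, without library 1 of hairpin 2. Without library 2 of control cells alone 3 were called, and without library 1 of hairpin 1 there were 13. Without library 1 or 2 of the control coculture, which is no part of the contrast, 4 and 5 were called. With the replicate number as a block FEN1 alone was called, so the count fell from 6 to 1. With the length trend removed, chosen after seeing the data, 14 were called, 13 lower and PRIM1 higher.

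The difference between 2 libraries of a group followed transcript length. Over the 39 genes the difference in log2 CPM, library 2 minus library 1, had a Spearman correlation with length of -0.66 in control cells alone, -0.65 in control cocultures, 0.63 with hairpin 1 and 0.40 with hairpin 2. Over 13235 tested genes with a length the values were -0.31, -0.48, 0.52 and 0.40. These points share libraries and are given as a description. With hairpin 1, 11 of the 39 genes were more than 0.2 lower in library 2, PCNA by 0.43, RFC2 by 0.36, RPA2 by 0.34, RFC4 by 0.32 and GINS2 by 0.28. With hairpin 2 no gene of the 39 differed by more than 0.2 between libraries. Over all genes, changes between groups also varied with transcript length in most comparisons, and over the 39 genes mainly between hairpins. Over the 39 genes their Spearman correlation with length was 0.11 for coculture, -0.08 for depletion, 0.16 for hairpin 1, -0.29 for hairpin 2 and -0.62 between hairpins, beside 0.21, 0.26, 0.36, 0.09 and -0.44 over all 13235 genes with a length. For depleted cells against cells alone it was -0.00 over the 39 genes and 0.41 over all. With GC content the depletion changes of the 39 genes had a correlation of -0.52, beside -0.24 over all 13235 genes. For hairpin 1 and hairpin 2 it was -0.50 and -0.44, beside -0.26 and -0.20 over all. For coculture it was 0.20, beside 0.02 over all. The part of transcript length or GC content in the calls was not tested beyond the fits with their trends removed.

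**Figure D4:**
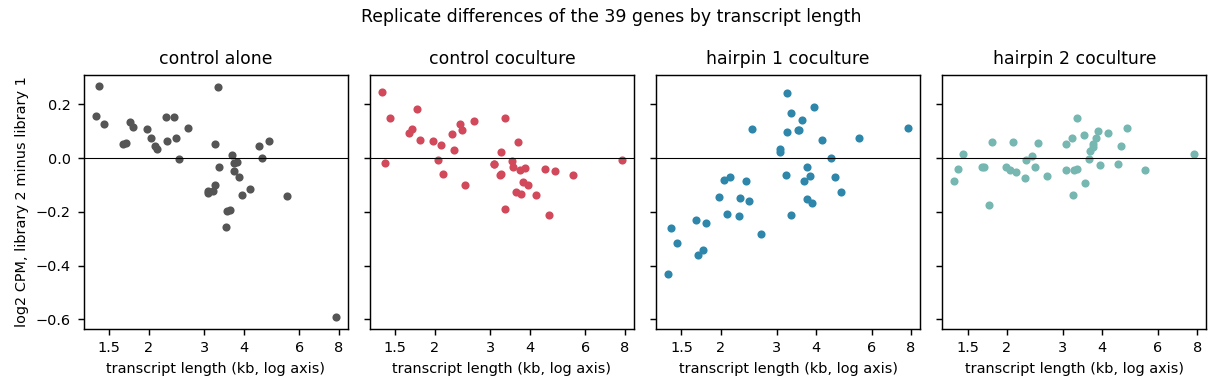
Difference in log2 CPM between library 2 and library 1 of each group (vertical axis) against transcript length in kb (horizontal log axis) for the 39 genes. Points slope down in control cells alone (Spearman -0.66) and control cocultures (-0.65) and up with hairpin 1 (0.63) and hairpin 2 (0.40).

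Genes with and without an E2F match in their promoter window had overlapping values. In coculture the median log2 change was -0.11 for the 18 genes with a match and -0.13 for the 15 without. On depletion the medians were 0.01 and -0.00, and in depleted cells against cells alone both were -0.13. The windows printed above show the same mix: RFC3 with 1 match and FEN1 with none both fell in coculture, and MCM6 with 4 matches gave 0.04 ± 0.06.

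Other genes of the pathway were taken from lists of known replication genes. Their counts are to be read beside the shares of all tested genes called higher and lower. These were 8.74% and 2.93% in coculture and 3.37% and 5.85% on depletion. In depleted cells against cells alone they were 10.8% and 6.34%. Of 33 other genes of the replication machinery, 1 rose and 2 fell in coculture. POLD4, the small subunit of polymerase delta, rose by 0.41 ± 0.09, ORC5 of the origin recognition complex changed by -0.40 ± 0.08 and DSCC1 of an alternative clamp loader by -0.29 ± 0.08. On depletion 4 of the 33 rose and 0 fell. ORC5 was at 12.6 and 12.4 CPM in control cocultures and at 16.5, 17.8, 14.8 and 15.8 in the 4 depleted libraries (0.37 ± 0.07, adjusted p = 0.0140), beside 16.4 and 16.4 in cells alone. USP1, which takes ubiquitin off PCNA, rose by 0.34 ± 0.05, DSCC1 by 0.26 ± 0.07 and TOPBP1, which helps to load CDC45, by 0.23 ± 0.06. With hairpin 1 alone 3 of the 33 were called, USP1, ORC5 and TOPBP1, and with hairpin 2 alone 1, USP1, all higher. In depleted cells against cells alone 1 of the 33 was called, CHTF18 at -0.70 ± 0.21 (adjusted p = 0.0499). Its level was 17.4 and 9.07 CPM in cells alone, and without library 1 of these its call was lost, as were those of POLD4, ORC5 and DSCC1 in coculture without any 1 of the 4 libraries compared. On depletion the calls of ORC5, USP1, DSCC1 and TOPBP1 were lost without library 2 of the control coculture.

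Among 12 other genes of nucleotide supply and breakdown, SAMHD1, an enzyme that breaks down deoxynucleotides, had the largest change. It was at 35.6 and 33.6 CPM alone, 134 and 125 in control cocultures, 37.8 and 42.7 with hairpin 1 and 40.9 and 44.4 with hairpin 2. It rose in coculture by 1.91 ± 0.09 on the log2 scale (adjusted p = 1.80e-06) and changed by -1.65 ± 0.07 on depletion (adjusted p = 1.23e-06). RRM2B, a small subunit of ribonucleotide reductase that p53 induces, rose by 0.27 ± 0.06 in coculture, and DTYMK, which makes the diphosphate of thymidine, changed by -0.38 ± 0.09. TK1, the S phase thymidine kinase, was at 144 and 151 CPM alone, 116 and 126 in control cocultures, 114 and 101 with hairpin 1 and 107 and 98.6 with hairpin 2. In depleted cells against cells alone TK1 fell (-0.48 ± 0.07, adjusted p = 0.00369), one of 3 genes of the list that were lower there beside 2 that were higher. The calls of SAMHD1 in coculture and on depletion, and of TK1, held without any 1 library, and those of RRM2B and DTYMK in coculture were lost without any 1 of the 4 libraries compared.

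Of 26 other genes that control the passage from G1 to S phase, 2 rose and 0 fell in coculture. CDKN1A, which encodes the kinase inhibitor p21, was at 148 and 143 CPM alone, 256 and 253 in control cocultures, 188 and 198 with hairpin 1 and 220 and 217 with hairpin 2. It rose by 0.81 ± 0.06 in coculture (adjusted p = 6.55e-05) and changed by -0.31 ± 0.05 on depletion (adjusted p = 0.00958). CCND3, a D-type cyclin, rose by 0.52 ± 0.06 in coculture and changed by -0.46 ± 0.05 on depletion. On depletion 2 of the 26 were higher, E2F7 at 0.32 ± 0.07 and RB1 at 0.30 ± 0.06, and 5 were lower, with CDKN1C at -0.77 ± 0.14, CDKN2D at -0.49 ± 0.07 and CDK2 at -0.21 ± 0.05 beside CCND3 and CDKN1A. The coculture calls of CDKN1A and CCND3 and the depletion call of CCND3 held without any 1 library, and all other depletion calls of this list were lost without library 2 of the control coculture. With hairpin 1 alone 2 of the 26 were higher and 4 lower. With hairpin 2 alone 0 were higher and 2 lower, CCND3 and CDKN2D, and CDKN1A did not pass (-0.22 ± 0.06). In depleted cells against cells alone 5 were higher, CDKN1A among them (0.50 ± 0.05), and 2 were lower. CCND1 and CCNA2 were called in none of these comparisons. Of 9 other genes of chromatin replication 0 were called in coculture or on depletion by edgeR or DESeq2, with 1 at an unadjusted p under 0.05 in each. In depleted cells against cells alone NASP (-0.35 ± 0.07) and RBBP7 (-0.30 ± 0.06), which handle histones, fell, calls that were lost without library 1 of control cells alone.

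For scale, 25 genes of G2 and mitosis, the phases after S, were measured in the same way. Their geometric mean came to 72.9 and 67.5 CPM without astrocytes, 63.3 and 63.5 in control cocultures, 58.9 and 57.1 with hairpin 1 and 54.8 and 55.3 with hairpin 2. That of the 39 replication genes was 44.8 and 42.4 CPM with hairpin 1 and 43.0 and 43.0 with hairpin 2. The replication genes thus showed a step between cells alone and the control coculture. Hairpin 1 lay on both sides of the control cocultures, and hairpin 2 slightly below them, at 43.0 against 43.7 CPM. The mitotic genes were lower again in each depleted library. In coculture 1 of the 25 mitotic genes was higher and 3 were lower, on depletion 0 and 3, and in depleted cells against cells alone 0 and 16, beside 0 and 6 of the 39. Of all tested genes 8.74% were higher and 2.93% lower in coculture, and 3.37% and 5.85% on depletion. The shares were 10.8% and 6.34% in depleted cells against cells alone. The median log2 change in the last comparison was -0.30 for the mitotic genes and -0.12 for the replication genes. Without library 1 of control cells alone the counts were 5 of 25 and 0 of 39, without library 2 of these 10 and 3, without library 1 of hairpin 2 they were 7 and 1, and without its library 2 they were 4 and 0. With 1 library left out, the 3 lower mitotic genes became 0 to 4 in coculture and 1 to 7 on depletion. A difference between the lists was not tested.

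**Figure D5:**
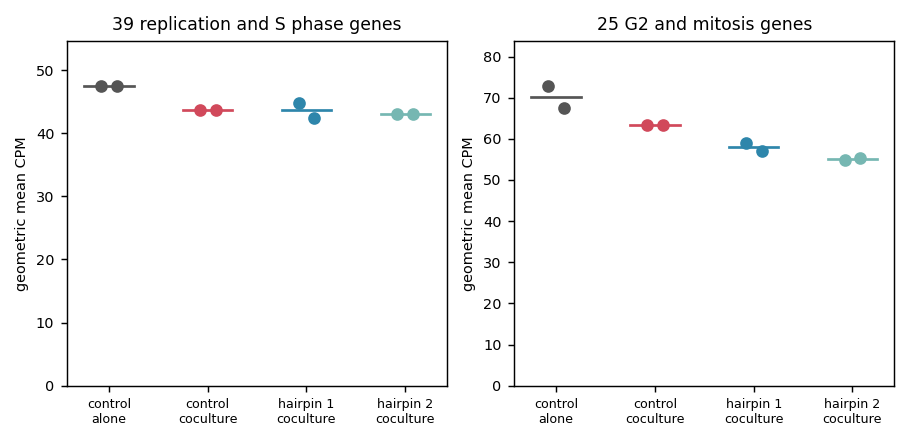
Geometric mean CPM of the 39 replication and S phase genes (left) and of 25 G2 and mitosis genes (right) in each library (points), with group means as lines and the vertical axis from 0. On the left the 2 libraries of control cells alone lie at 47.4 and 47.5 and the 6 cocultures between 42.4 and 44.8; on the right the level is also lower with either hairpin than in the control cocultures.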

How the data were processed

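Reads were processed by the submitters with TopHat2, HTSeq and DESeq2 on hg19, per the submitters' processing notes, which give no versions. Annotation, counting mode and strand are not given in the sources used here. The deposited values are whole-number counts per gene, although the file's name calls them normalized, and they were tested as unnormalized counts. The 5 counter entries, 27.1% to 37.4% of the totals, were left out.

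Counts were tested in R 4.3.3 with edgeR 4.0.16 (quasi-likelihood, TMM, 4 group means, all 8 libraries in 1 fit), with Benjamini-Hochberg adjustment over 15806 genes and a threshold of 0.05. DESeq2 1.42.0 was the alternative tool. Errors after ± are standard errors of log2 changes. Libraries of a group differed by more than counting error (chi-square per degree of freedom 4.22 to 32.6). Transcript length and GC content came from the longest protein-coding transcript of GENCODE 29.

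All 39 genes could be named, and from each other list up to 6 called genes per comparison or a few fixed ones. The members and lists were chosen with earlier results of these data known.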

Additional observations from a re-analysis of the deposited data

How the results depend on the processing

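Counts of calls among the 39 genes, and over all genes, moved with the settings as follows, and the cause was not tested unless named. With no filter on low counts the coculture comparison had 6 of the 39 and 2805 of all genes, depletion 1 of the 39, hairpin 1 2269 of all, hairpin 2 1 of the 39 and 1191 of all, the comparison of hairpins 1 of the 39 and 304 of all, and depleted cells against cells alone 4117 of all. With only the compared groups fitted, hairpin 1 had 236 of all genes, hairpin 2 had 2 of the 39 (LIG1 and POLD1), and the comparison of hairpins 2 of all. For the hairpins against each other a mean count of at least 50 gave 3 genes and DESeq2 22, beside 5.

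Leaving out 1 library at a time moved the counts for the 39 genes from 3 to between 0 and 5 in coculture, from 0 to between 0 and 1 on depletion and for hairpin 2, and from 6 to between 0 and 13 in depleted cells against cells alone, where fewer libraries also give fewer degrees of freedom. Over all genes they ran from 738 to 2582 in coculture, 343 to 2314 on depletion, 281 to 2405 for hairpin 1, 150 to 1101 for hairpin 2, 0 to 3 between hairpins and 531 to 4717 in depleted cells against cells alone.

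The labels do not say whether the replicate numbers pair the libraries across groups. Deviations of same-numbered libraries correlated between -0.38 and 0.20 over the pairs of groups. Such correlations cannot decide whether libraries were handled together. With the replicate number as a block the 39 genes had 0 calls in coculture and 1 in depleted cells against cells alone. Over all genes the block gave 1160, 700, 446, 319, 0 and 1502 calls in coculture, depletion, hairpin 1, hairpin 2, between hairpins and depleted cells against cells alone. A block with the numbers of both hairpins crossed, added after seeing the data, gave 6, 3 and 7 of the 39 and 3721, 3895 and 2329 of all genes for depletion, hairpin 1 and hairpin 2.

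Removing the length trend, also added later and possible for 13235 genes, gave 8, 7, 3, 3 and 14 of the 39 in coculture, depletion, hairpin 1, hairpin 2 and depleted cells against cells alone, and 2925, 2552, 2037, 1657 and 17 of all genes in coculture, depletion, hairpin 1, hairpin 2 and between hairpins. Removing the GC trend gave 5 of the 39 in coculture and 1 on depletion. No called change among the genes named turned its direction under any of these settings. The unadjusted 95% intervals of the 39 genes had a median half-width of 0.19 on the log2 scale in coculture and 0.17 on depletion. Larger changes could still miss the adjusted threshold, as did GINS2 in coculture and LIG1 on depletion.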

Other observations

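Replication-dependent histone genes, whose mRNA is made in S phase and bound by SLBP, were outside the 39 genes. As background, most of these mRNAs lack a poly(A) tail, and whether the libraries were selected for poly(A) RNA is not given in the sources used here; reads of near-identical copies can also be split between genes. The histone genes were taken by gene symbol alone, and whether the mRNA of each follows S phase was not tested. Of 31 tested, 0 were called in coculture by edgeR or DESeq2, with 3 at an unadjusted p under 0.05. On depletion 3 fell, beside 5.85% of all tested genes. In depleted cells against cells alone 5 fell and 0 rose, beside 6.34% of all tested genes lower. At an unadjusted p under 0.05 there 5 were higher and 6 lower. HIST1H2BK changed by -0.49, HIST1H1C by -0.57 and HIST1H2AC by -0.40 on depletion, and by -0.55, -0.75 and -0.63 against cells alone. The median of the 31 was 0.23 in coculture and -0.03 on depletion. Without library 2 of the control coculture the counts were 5 higher in coculture and 0 on depletion, without library 2 of hairpin 2 they were 1 on depletion and 3 lower against cells alone, and without library 1 or 2 of control cells alone 3 or 2 were lower against cells alone.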
